A study of Mus musculus with 40 samples.

Results

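The PRAME-like (Pramel) and oogenesin (Oog) genes of the mouse were followed in RNA from oocytes and zygotes. The members were the genes whose symbol is Pramel or Prame with a number, or Oog with a number, in the deposited expression tables. They are 23 of the 11323 genes in the 8 tables together, 19 Pramel genes and 4 oogenesins. Pramel7 is in none of the tables and was not analysed here.

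PRAME-family proteins are built of leucine-rich repeats, and the family has been expanded by gene duplication in the mouse. Human PRAME, a cancer-testis antigen, is a substrate receptor of Cullin-2 ubiquitin ligases, which it joins through the elongin B and elongin C adaptors. The oogenesins were first found as genes expressed in oocytes and early embryos of the mouse, where the messages made during oocyte growth are stored and translated until the embryonic genome takes over.

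The study compared maturation in culture with maturation in the animal, and asked which stored maternal messages the oocyte and the zygote recruit for translation. The 40 libraries fall into 10 groups of 4, which are 5 kinds of mouse cell with 2 RNA fractions each. IVM are denuded oocytes matured in vitro, COC are oocytes matured in vitro inside cumulus-oocyte complexes, and IVO are oocytes matured in vivo. IMZ are pronuclear zygotes for which maturation and fertilization both took place in vitro, and IVZ are pronuclear zygotes matured and fertilized in vivo. The step in culture covers maturation as well as fertilization for IMZ, and their effects on IMZ against IVZ cannot be told apart. Total RNA was sequenced without fractionation, and polysomal RNA holds the messages that sediment with several ribosomes. All groups share an ovarian tissue label and a germ cell label. Strain, age and hormone treatment of the animals are not stated in the labels used here. Whether the 4 replicates of a group stem from different animals or collections is not stated either, and p-values then measure only how these libraries spread, which may be technical. Values are RPKM, reads per kilobase of gene and per M reads (mega-reads) of the library, as the authors deposited them. A rise or fall in RPKM is thus relative to the other messages of the library, also between oocyte and zygote. No value in any table is under 0.2 RPKM, and a table lists only genes with a value in each of its 8 libraries.

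Most of the members lie in clusters. In the GENCODE M21 annotation, 17 are on chromosome 4, 4 on chromosome 5 (Pramel34, Pramel35, Pramel47 and Pramel48) and 2 on chromosome 12 (Oog1 and Pramel51). Pramel47 and Pramel48 are neighbours with 0 other coding genes between them, as are Oog3, Oog2 and Pramel29. Only the 4 oogenesins carry the same name in that annotation, and the gene identifiers matched for all 23 members. Many members share long stretches of sequence, which limits how far reads can be assigned to a single gene. Of all 50-base words in the annotated transcripts of a member, a median of 38.6% also occurred in another gene's transcripts, and the share was over 50% for 7 members. It was 95.2% for Pramel35, 89.0% for Oog1, 83.1% for Pramel47 and 77.2% for Pramel48, and 63.6% for Pramel51, 63.5% for Pramel16 and 58.5% for Pramel34. The words of Oog1 and Pramel51 were shared mainly with Gm2042, and those of Pramel48 with 19 other genes. Pramel12, Pramel13 and Pramel15 shared 0 words. How the authors' counting treated reads that match several genes is not stated in the labels, so the levels of the sharing members are uncertain as single-gene values.

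Several members also share letters before their start sites. RefSeq promoters (GRCm38.p6) matched 18 of the 23 members by symbol, and the last 100 bases before the annotated start are printed for 5 members with high RNA levels that share a block, followed by 3 that lack it. Capitals mark matches to GGGTGTGGC, a block noticed in these sequences and searched afterwards, and to TATANA. The latter resembles a TATA box, its matches can overlap (as in TATATAAA), and both motifs were searched on both strands. The windows are Oog1 at chr12:87602565-87602664, plus strand, Oog3 at chr4:144162652-144162751, minus strand, Pramel25 at chr4:143789234-143789333, plus strand, Pramel26 at chr4:143816094-143816193, minus strand, Pramel32 at chr4:88634187-88634286, minus strand, Pramel13 at chr4:144408465-144408564, minus strand, Pramel15 at chr4:144377934-144378033, minus strand, and Pramel48 at chr5:95456706-95456805, plus strand.
Oog1: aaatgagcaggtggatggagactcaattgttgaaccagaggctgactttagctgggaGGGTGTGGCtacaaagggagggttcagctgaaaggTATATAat
Oog3: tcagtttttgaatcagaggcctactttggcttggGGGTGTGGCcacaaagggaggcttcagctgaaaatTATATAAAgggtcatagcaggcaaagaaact
Pramel25: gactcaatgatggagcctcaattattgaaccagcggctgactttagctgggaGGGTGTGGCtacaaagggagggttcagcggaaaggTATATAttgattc
Pramel26: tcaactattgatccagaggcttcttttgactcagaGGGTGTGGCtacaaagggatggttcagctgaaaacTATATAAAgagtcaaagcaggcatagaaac
Pramel32: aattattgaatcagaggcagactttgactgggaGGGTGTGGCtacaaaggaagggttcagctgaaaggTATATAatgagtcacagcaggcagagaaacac
Pramel13: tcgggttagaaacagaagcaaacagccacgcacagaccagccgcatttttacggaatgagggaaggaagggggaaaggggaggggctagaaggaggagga
Pramel15: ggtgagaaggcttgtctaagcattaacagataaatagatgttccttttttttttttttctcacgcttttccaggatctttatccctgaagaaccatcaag
Pramel48: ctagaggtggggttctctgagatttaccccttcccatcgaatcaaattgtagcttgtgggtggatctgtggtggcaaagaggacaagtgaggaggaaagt

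Both motifs stood within the last 100 bases in 10 of the 18 member promoters, and in 42 of all 32851 promoters in the table (0.128%). The other 32 include 6 Pramel genes that are in none of the tables, Gm2042 and 11 Scgb2b genes. In the printed members with the block, GGGTGTGGC began between positions -67 and -43 from the annotated start and the TATANA match between -32 and -8. The 10 members with both motifs were Oog1, Oog2, Oog3, Oog4, Pramel23, Pramel25, Pramel26, Pramel27, Pramel29 and Pramel32, and 8 of them had a mean total RNA level of 50 RPKM or more. Of the 8 members without both, 1 did (Pramel13). The block was found in these same sequences and the level of 50 RPKM was set for this count. The counts are therefore no test of a link between motifs and RNA level. The 5 members without a promoter entry, Pramel12, Pramel28, Pramel34, Pramel47 and Pramel51, are not in them, and Pramel51 had a mean of 189 RPKM. Over the whole 250 bases before the start, TAATTG, a motif bound by the oocyte homeobox factor NOBOX, occurred in 9 of 18 member promoters and in 7.17% of all promoters. The E-box CANNTG occurred in 15 of 18 and in 66.2%. These are matches of letters only, and the promoters of members resemble each other, so they are not independent cases.

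In total RNA, a group of 8 members was among the abundant messages of every cell type. Their means over all 20 total RNA libraries were 307 RPKM for Pramel25, 267 for Oog3, 249 for Pramel26, 221 for Oog1, 189 for Pramel51, 165 for Pramel29, 135 for Pramel13 and 105 for Pramel32. Pramel25 ranked 78 of the 11308 genes with total RNA values, and 9 members, the 8 and Oog4, were in the top 5%. Oog4, Oog2, Pramel34 and Pramel15 followed at 99.7, 52.6, 38.8 and 30.4 RPKM. Pramel27, Pramel48, Pramel47, Pramel12 and Pramel23 lay between 3.01 and 12.4 RPKM, and the other 6 (Pramel22, Pramel19, Pramel35, Pramel16, Pramel28 and Pramel31) under 1 RPKM. Total RNA values of Pramel27, Pramel31 and Pramel35 exist for the 12 oocyte libraries only, and those of Pramel28 for the 8 zygote libraries only. Their means cover those libraries alone, and these genes are not among the 19 members listed in all 4 total RNA tables. 

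**Figure D1:**
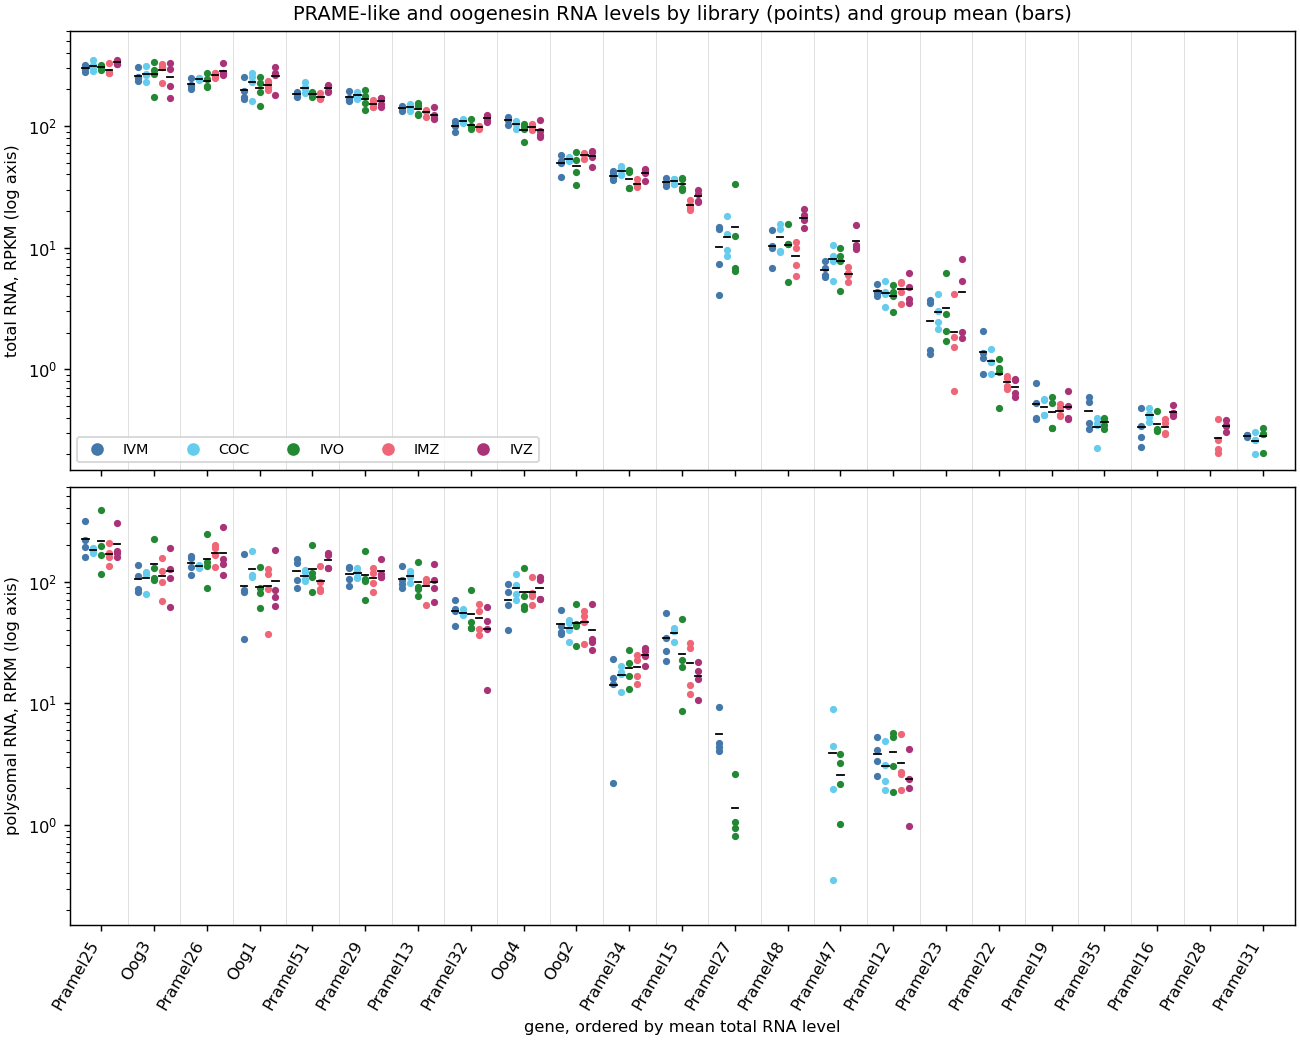
RPKM of each member in each library (points, log axis) and the mean of its 4 libraries (black bars) in total RNA (upper) and polysomal RNA (lower), by cell group. The levels of the members span from 0.276 to 307 RPKM on average in total RNA, and 8 members have no polysomal values because no polysomal table lists them.

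Of the 5 most abundant members, the 3 Pramel genes varied less between replicates than Oog1 and Oog3. Pramel25 had 312, 318, 278 and 294 RPKM in IVM, 281, 316, 349 and 299 in COC and 308, 315, 305 and 289.7 in IVO in total RNA of oocyte replicates 1 to 4. In zygotes it had 270.3, 270.1, 277 and 329.7 RPKM in IMZ and 349.5, 323, 324 and 338 in IVZ, so the lowest IVZ library was above all oocyte libraries but the highest of COC. The median coefficient of variation between replicates over the 5 groups was 6.04% for Pramel25, 5.0% for Pramel51 and 8.89% for Pramel26, against 15.0% for Oog3 and 21% for Oog1. Pramel26 measured 248, 201, 217 and 215 RPKM in IVM, 237, 242, 246 and 247 in COC and 210.2, 272, 212 and 243 in IVO in oocytes. In zygotes Pramel26 measured 274, 258, 275 and 248 RPKM in IMZ and 262, 329, 270.3 and 271 in IVZ, with IVZ replicate 2 the highest library of the 20. Pramel51 had 192, 173, 177 and 186 RPKM in IVM, 186, 208, 228 and 199 in COC and 172, 179.7, 187 and 190.3 in IVO in oocyte total RNA. Its zygote values were 170.5, 167, 168 and 186 RPKM in IMZ and 218, 193, 190.3 and 215 in IVZ, and each IMZ library was below each IVZ library.

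Of the oogenesins, whose own roles in the oocyte are little defined, Oog4 varied least between replicates, with a median coefficient of variation of 6.13% against 12.9% for Oog2. Oog1 total RNA was 253, 173, 193 and 167 RPKM in IVM, 250.3, 274, 232 and 161 in COC and 191, 252, 147 and 227 in IVO. In zygotes Oog1 measured 228, 236, 198 and 209 RPKM in IMZ and 264, 307, 181 and 272 in IVZ, and every group overlapped every other. Oog3 total RNA was 305, 233, 247 and 254 RPKM in IVM, 264, 231, 310.2 and 265 in COC and 288, 332, 171 and 269 in IVO in oocytes. Its zygote libraries gave 226, 306, 307 and 323 RPKM in IMZ and 294, 169, 213 and 327 in IVZ, with the IMZ values inside the IVZ range. Oog2 ran lower, at 58, 37.8, 49.4 and 51.7 RPKM in IVM, 51.2, 52.2, 56.1 and 52.7 in COC and 41.8, 60.6, 32.8 and 52 in IVO in oocyte total RNA. It had 53.2, 58.7, 60.3 and 59.3 RPKM in IMZ and 61.9, 55.8, 46.1 and 61 in IVZ in zygotes, again with overlapping groups. Oog4 total RNA was 118, 103, 114 and 111 RPKM in IVM, 104, 109, 94.8 and 108 in COC and 73.2, 94.1, 101 and 103 in IVO, and the lowest oocyte library was IVO replicate 1. Oog4 measured 102, 92.9, 103 and 95.7 RPKM in IMZ and 81.3, 111, 90.6 and 84.3 in IVZ in zygotes, where the groups overlapped.

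The 20 total RNA libraries held an estimated 46.6 to 63.2 M reads, inferred from the spacing of the lowest RPKM values. In 10 simulated libraries this search called a depth for 8, all within 1% of the true one. Its settings were adjusted after seeing simulated and real output. A depth could be recovered for 7 of the 20 polysomal libraries, at 7.66 to 17.3 M, while the depth behind the remaining 13 is not known. At these depths and the M21 exonic lengths, Pramel25 rests on about 23457 to 36630 reads per total RNA library and Pramel48 on about 753 to 2905, but Pramel16 on about 18 to 51. Ranks of genes correlated within total RNA groups at 0.984 or more (median Spearman correlation of a library with its group). Polysomal libraries stood further apart, at 0.676 for IVM replicate 1, 0.748 for IVZ replicate 1 and 0.835 to 0.926 for the others. The authors excluded IVM replicate 1 and IVZ replicate 1 of the polysomal RNA after a principal component analysis, per the file headers. Both are kept here, and the counts of members called between cell groups in polysomal RNA were 0 with and without each. All 10 oocyte markers (Gdf9, Bmp15, Zp1, Zp2, Zp3, Mos, Nlrp5, Oosp1, Figla and Ooep) were listed in every group, with a summed total RNA level of 3009 to 3890 RPKM in oocytes and 1775 to 2329 in zygotes. Of 16 cumulus markers, 2 or 3 were listed in total RNA (Nr5a2, Cyp19a1 and, in COC and IVO, Grem1), at a summed 12.0 to 16.0 RPKM per library, and the defining granulosa genes Fshr, Lhcgr, Amh and Foxl2 were not listed. Of 7 sperm markers only Prm2 was listed, in oocytes as well as zygotes, and of 3 blood markers 0 were. In bulk samples such as these, fewer cells with a message and less of it per cell cannot be told apart.

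Between zygotes made in vitro and in vivo, 2 neighbouring members on chromosome 5 differed. Pramel48 and Pramel47, whose functions are not known, were lower in IMZ than in IVZ. Pramel48 total RNA was 7.26, 5.9, 11.2 and 9.87 RPKM in IMZ replicates 1 to 4 and 16.7, 21, 14.5 and 18.5 in IVZ. The groups did not overlap, and the means were 8.56 ± 2.42 and 17.7 ± 2.74 RPKM (SD, n = 4 each). Pramel47 total RNA was 6.2, 5.24, 6.96 and 5.96 RPKM in IMZ and 10.5, 15.3, 9.69 and 10.2 in IVZ. These groups did not overlap either, with IVZ replicate 2 the highest library, and the means were 6.09 ± 0.711 and 11.4 ± 2.62 RPKM (SD, n = 4 each). In the limma test on log2(RPKM + 1) over all 10824 genes of the table, Pramel48 fell by 0.99 ± 0.17 (SE) on the log2 scale, with a Benjamini-Hochberg adjusted p of 0.0211. Pramel47 fell by 0.79 ± 0.13, with an adjusted p of 0.0199. In the authors' deposited table the log2 fold changes were -1.06 for Pramel48 and -0.92 for Pramel47.

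With these, 2 of the 20 members tested were lower and 0 higher, where 1.15% of all genes were called lower and 0.508% higher. At an unadjusted p under 0.05 there were 8 members, all lower: Pramel47, Pramel48, Pramel32, Pramel34, Pramel51, Pramel25, Pramel15 and Pramel16, where 18.9% of all genes passed in either direction. Adjusting the authors' deposited p-values called 3 members lower, Pramel34 in addition, and 429 of all genes (159 higher and 270 lower) in place of the 55 and 125 of limma. Of the 20 members, 14 lay below 0, the member median was -0.11 and the median of all genes was -0.00170. The share of all genes below 0 was not counted, and members can shift together in a library, so these signs are not independent cases. The libraries of the groups did not overlap, with IMZ lower, for 5 members (Pramel47, Pramel48, Pramel32, Pramel51 and Pramel16), as they did not for 6.39% of all genes, and 4.65% of all genes had IMZ higher. The largest difference in the other direction was 0.24 ± 0.19 for Oog3, with a 95% interval of -0.18 to 0.67. Both calls were lost when IMZ replicate 1, IMZ replicate 2, IVZ replicate 1 or IVZ replicate 4 was left out, with adjusted p from 0.0523 to 0.0733 in these fits, and the differences then ran from -1.01 to -0.73. Since Pramel47 shares 83.1% and Pramel48 77.2% of their 50-base words with other genes, the values cannot be assigned with certainty to these 2 genes alone. The 2 genes are neighbours, and 49.0% of the words of Pramel34 occur in Pramel47. The calls of these genes therefore cannot be counted as independent cases.

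**Figure D2:**
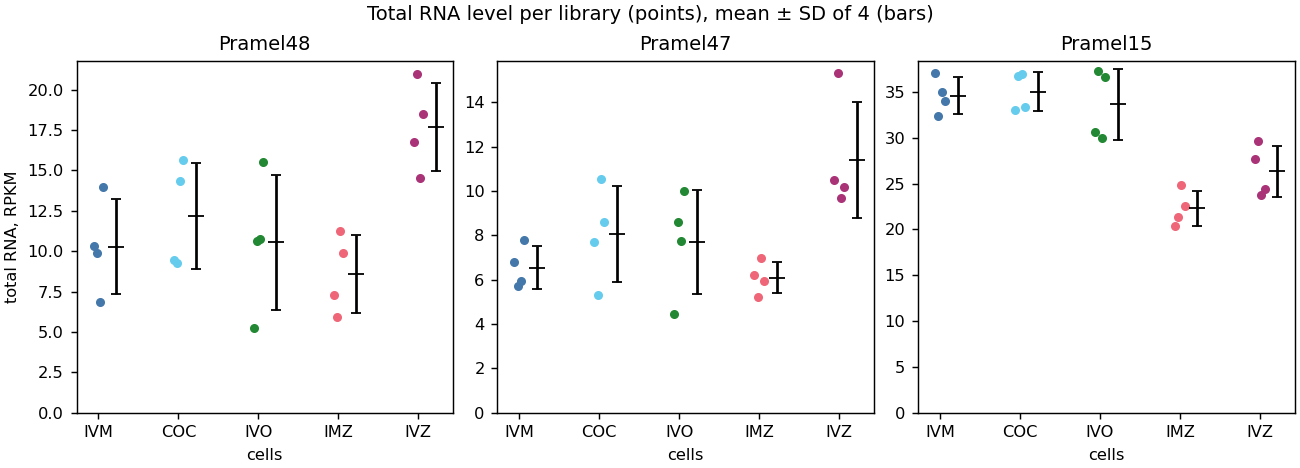
Total RNA level in RPKM of Pramel48, Pramel47 and Pramel15 in each library (points) of the 5 cell groups, with the mean and SD of 4 libraries beside them. Pramel48 and Pramel47 are highest in IVZ, at means of 17.7 and 11.4 RPKM, and Pramel15 is lowest in IMZ, at 22.3 RPKM.

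Before fertilization, 0 members passed the test between any of the oocyte groups in total RNA. For IVM against IVO, 0 of 22 members were called, where 0.509% of all genes were called higher and 0% lower. Oog4 had the smallest p, with 118, 103, 114 and 111 RPKM in IVM and 73.2, 94.1, 101 and 103 in IVO, a log2 difference of 0.27 ± 0.11 (SE) and an adjusted p of 0.412, the only member at an unadjusted p under 0.05, as 10.9% of all genes were. It was followed by members of low level that the test did not call. Pramel22 measured 2.07, 0.917, 1.24 and 1.37 RPKM in IVM and 1.21, 0.944, 0.485 and 1.02 in IVO, with an adjusted p of 0.517. Pramel35 measured 0.588, 0.539, 0.321 and 0.365 and 0.390, 0.351, 0.324 and 0.402, with an adjusted p of 0.709. Pramel12 measured 4.36, 4.25, 4.99 and 4.0 and 2.96, 3.98, 4.91 and 4.32, with an adjusted p of 0.789. All 3 sets of values overlapped. Of the 22 members 0 had groups wholly apart, where 5.56% of all genes had IVM higher and 1.76% lower. The member median was 0.00665 and that of all genes 0.03.

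For COC against IVO, 0 of 22 members were called and 0 had an unadjusted p under 0.05 (7.08% of all genes had), where 0.00911% of all genes were called higher and 0% lower. The smallest p belonged to Pramel51, with 186, 208, 228 and 199 RPKM in COC and 172, 179.7, 187 and 190.3 in IVO, a difference of 0.17 ± 0.08 and an adjusted p of 0.712. Pramel34 had 40.4, 47.2, 39.2 and 45.3 RPKM in COC and 30.7, 42, 31.2 and 43.1 in IVO, and an interval of -0.04 to 0.52. Pramel32 had 105, 115, 112 and 110.0 and 97.2, 114, 95.2 and 101 RPKM, and an interval of -0.04 to 0.29. Oog4 followed, with an interval of -0.07 to 0.42. The groups overlapped for each of these, and 19 of the 22 differences were above 0, with a median of 0.07 against 0.02 for all genes. Groups that did not overlap were found for 0 members, and for 2.25% (COC higher) and 2.15% (lower) of all genes. For IVM against COC, 0 of 22 members were called and 0 had an unadjusted p under 0.05 (5.65% of all genes had), with 0.0359% of all genes called higher and 0.00897% lower. Pramel51 again came first at -0.17 ± 0.08, then Pramel26 at -0.15 ± 0.08 and Pramel32 at -0.14 ± 0.07. Pramel26 had 201 to 248 RPKM in IVM and 237 to 247 in COC, and Pramel32 88.6 to 109 in IVM and 105 to 115 in COC. Pramel35 came next, at 0.588, 0.539, 0.321 and 0.365 RPKM in IVM and 0.362, 0.352, 0.399 and 0.228 in COC. Again 0 members had groups that did not overlap, where 3.55% of all genes had IVM higher and 1.06% lower. The 3 oocyte comparisons share their groups, so their differences are not independent. Adjusting the authors' deposited p-values gave 0 members in each of the 3 as well, and 104, 28 and 34 of all genes.

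**Figure D3:**
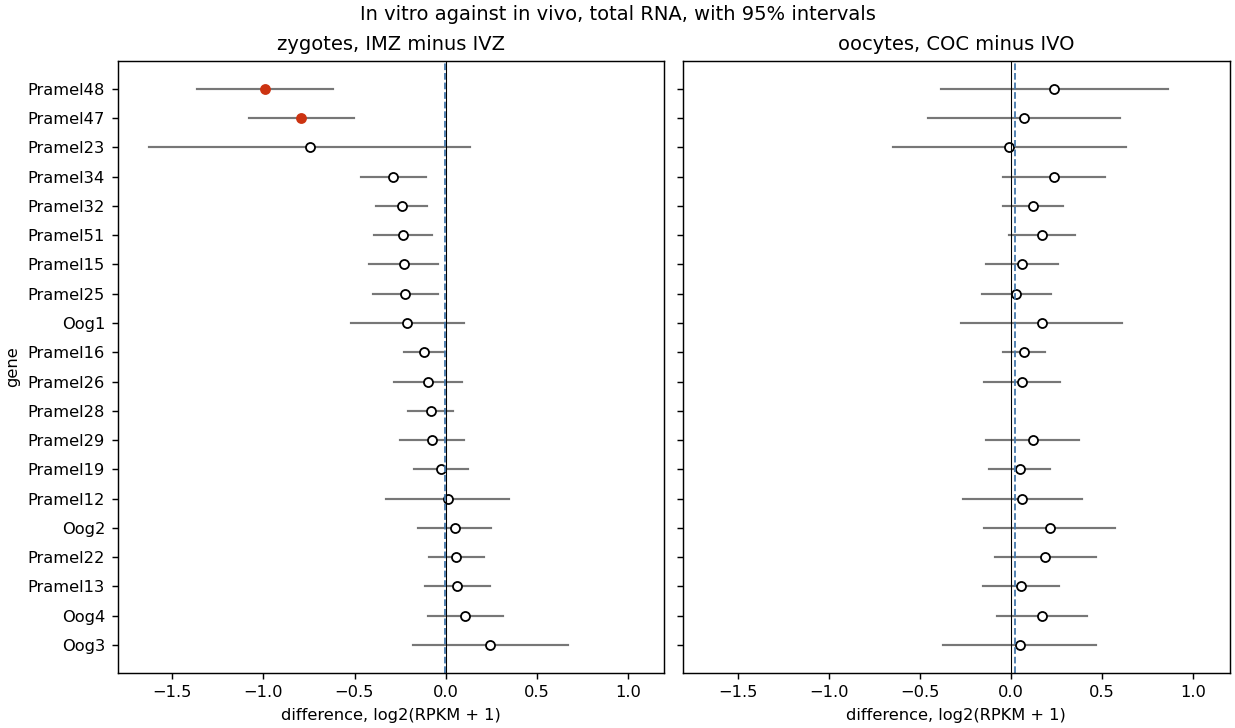
Difference in total RNA on the log2(RPKM + 1) scale with its 95% interval for each member, for IMZ minus IVZ (left) and COC minus IVO (right). Filled points are called at an adjusted p under 0.05, the dashed line is the median of all genes, and Pramel28 has no value in the oocyte panel. Pramel48 (-0.99) and Pramel47 (-0.79) are the 2 filled points, and all intervals in the oocyte panel include 0.

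The zygote difference was then set beside the oocyte difference in one fit of all 20 total RNA libraries over the 10660 genes listed in all 4 total RNA tables, which hold 19 members. The contrast was IMZ minus IVZ less COC minus IVO. COC was taken here as the oocyte group that precedes IMZ. The sample titles do not say whether IMZ zygotes came from cumulus-enclosed or denuded oocytes. The contrast was not run with IVM in place of COC. It called 0 of 19 members, where 0.263% of all genes were called lower and 0.0657% higher (28 and 7 genes; 23 and 10 with median-of-ratios scaling). At an unadjusted p under 0.05 there were 8 members, all below 0, where 9.72% of all genes passed in either direction. The contrast was -1.23 ± 0.36 for Pramel48 with an adjusted p of 0.194, -0.86 ± 0.28 for Pramel47 (0.237) and -0.41 ± 0.10 for Pramel51 (0.108). So a difference between the zygote and the oocyte effect was not shown for any member. The member median was -0.19, the median of all genes -0.02, and 17 of 19 values were below 0. The share of all genes below 0 was not counted. Since members shift together in single libraries, these signs are not independent cases.

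From the oocyte to the zygote, Pramel15 fell on both routes. Pramel15 is reported to promote the removal of the DNA methyltransferase DNMT1 in mouse zygotes. Its total RNA was 37.1, 32.4, 35 and 34 RPKM in IVM, 33.1, 36.7, 37 and 33.3 in COC and 30.7, 37.3, 29.9 and 36.6 in IVO in oocytes. It was 20.4, 21.4, 24.8 and 22.6 RPKM in IMZ and 27.7, 29.6, 23.7 and 24.4 in IVZ in zygotes. All 8 zygote libraries lay below all 12 oocyte libraries, the nearest being 29.6 in IVZ and 29.9 in IVO. The share of all genes with such an order was not counted. For IVZ against IVO the difference was -0.34 ± 0.09 (SE) with an adjusted p of 0.00582, and for IMZ against COC -0.63 ± 0.09 with an adjusted p of 8.72e-06. Both calls held in each fit with another pseudocount, scaling or filter and with each library left out. The summed oocyte markers went from 3015 to 3446 RPKM per library in IVO to 1858 to 1944 in IVZ. They went from 3009 to 3339 in COC to 1775 to 2329 in IMZ. The single markers did not move alike. Mean Gdf9 fell from 1191 RPKM in IVO to 555 in IVZ and from 1298 in COC to 642 in IMZ. Mean Bmp15 rose in these steps, from 289 to 335 and from 317 to 396 RPKM. Mean Ooep went from 193 to 210 and from 204 to 201 RPKM. The part of these markers in the results of these steps was not tested.

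On the in vivo route, IVZ against IVO, 2 of 19 members were higher and 1 lower, where 5.4% of all genes were called higher and 18.3% lower. Pramel26 rose from 234 ± 29.2 to 283 ± 30.8 RPKM (SD, n = 4 each), by 0.27 ± 0.09 on the log2 scale with an adjusted p of 0.0306. The groups overlapped, since IVO replicate 2 had 272 RPKM and IVZ replicate 1 had 262. Pramel48 rose from 10.5 ± 4.2 to 17.7 ± 2.74 RPKM, by 0.77 ± 0.25 with an adjusted p of 0.0345. Its IVO values of 5.25, 10.6, 10.8 and 15.5 RPKM reached into the IVZ range. Pramel47 had 4.43, 8.62, 7.76 and 9.99 RPKM in IVO, and its difference of 0.54 ± 0.19 had an adjusted p of 0.0514. The count of 3 moved with single libraries. It was 1 (Pramel15) without IVZ replicate 2 or without IVO replicate 1, 2 without IVZ replicate 1, IVZ replicate 4 or IVO replicate 3, 5 without IVZ replicate 3 and 6 without IVO replicate 2. With median-of-ratios scaling 5 members were higher (Pramel26, Pramel32, Pramel47, Pramel48 and Pramel51) and 1 lower, and over all genes 1161 were higher and 1673 lower in place of 576 and 1950.

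On the in vitro route, taken here as IMZ against COC, 3 of 19 members were lower and 0 higher, where 24.4% of all genes were called lower and 9.42% higher. A share of members near or below that of all genes is no result about the members. Beside Pramel15 these were Pramel34 and Pramel51. Pramel34 total RNA was 40.4, 47.2, 39.2 and 45.3 RPKM in COC and 31.6, 32.9, 36.7 and 33.1 in IMZ, a difference of -0.35 ± 0.11 with an adjusted p of 0.0154. Pramel51 was given above and differed by -0.24 ± 0.07, with an adjusted p of 0.0105. Of the 19 members, 6 had each IMZ library below each COC library and 1 had each above. The share of all genes was not counted, so this is no result about the members. Pramel34 and Pramel51 were among the 6. The lowest COC library of Pramel51 had 186.09 RPKM and its highest IMZ library 185.86. Against IVM oocytes in place of COC neither was called, with adjusted p of 0.122 for Pramel34 and 0.451 for Pramel51, and the calls were then Pramel15 and Pramel22, lower, and Pramel26, higher. With median-of-ratios scaling Pramel51 was not called by limma (adjusted p = 0.0969 in its fit over all genes), and over all genes 1748 were higher and 2147 lower in place of 1004 and 2603. Without COC replicate 2 Pramel34 was not called by limma (adjusted p = 0.0526 in its fit over all genes).

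In polysomal RNA, 15 members were listed in at least 1 table, 13 of them in all 4, and 8 in none. Those 8 are Pramel16, Pramel19, Pramel22, Pramel23, Pramel28, Pramel31, Pramel35 and Pramel48, and 6 of them lay under 1 RPKM in total RNA, where 93.6% of all genes were in no polysomal table. Pramel48, at 5.25 to 21 RPKM in total RNA, belonged to a level at which most genes were listed. Of the 3343 genes with a mean total RNA level of 5 to 20 RPKM, 118 were in no polysomal table (3.53%). Pramel23, at a mean of 3.01 RPKM, was in a band of 1 to 5 RPKM where 39.6% were in none. No listed value is under 0.2 RPKM, but the rule by which genes were listed is not stated. The polysomal values of an unlisted gene are not known.

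Across the 4 polysomal comparisons, 0 members were called, and 0% of all genes were called by limma in either direction in each of them. The 4 fits held 14 members for IVM against IVO, 14 for COC against IVO, 13 for IVM against COC and 13 for IMZ against IVZ. At an unadjusted p under 0.05 there was 1 member, 0, 0 and 0, as were 2.98%, 5.23%, 4.44% and 5.68% of all genes. Adjusting the authors' deposited p-values gave 0 members in each, and 12, 25, 0 and 163 of all genes. In simulated data with the spread of IMZ against IVZ polysomal RNA (6336 genes), 11 of 100 changes of 1 log2 unit and 63 of 100 changes of 2 were called, against 97 and 100 in total RNA. The one member at an unadjusted p under 0.05 was Pramel27, with 4.01, 4.4, 9.31 and 4.72 RPKM in IVM and 0.818, 1.06, 0.946 and 2.64 in IVO. The groups did not overlap, as for 1.73% of all genes in that direction, and the difference was 1.48 ± 0.38 with an adjusted p of 0.985. For COC against IVO, IVM against COC and IMZ against IVZ, 0 members had groups that did not overlap. Of all genes 2.88%, 0.996% and 0.71% had the first group higher, and 0.385%, 2.17% and 2.75% lower, and 0.236% had IVM lower than IVO. In total RNA Pramel27 showed no such order, at 4.1, 14.7, 14.2 and 7.37 RPKM in IVM and 6.4, 6.78, 33.2 and 12.5 in IVO.

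The other polysomal values overlapped between the groups of these 4 comparisons. Pramel15 had 55.5, 26.6, 34.3 and 22.1 RPKM in IVM, 31.9, 39.3, 39.4 and 41.5 in COC and 8.69, 49.6, 19.8 and 22.5 in IVO in oocyte polysomal RNA. Its zygote values were 28.3, 31.1, 14.1 and 11.9 RPKM in IMZ and 10.6, 18.5, 15.8 and 22 in IVZ. For COC against IVO its difference was 0.81 ± 0.40 with a 95% interval of -0.02 to 1.65, and for IVM against IVO the interval was -0.44 to 1.64, and both intervals hold 0 as well as a change of 1 log2 unit. Oog1 had 33.5, 168, 85.9 and 82.1 RPKM in IVM, 179, 108, 114 and 111 in COC and 80.4, 130.4, 89.1 and 60.5 in IVO in oocytes, and IVM replicate 1 was the lowest. Oog1 gave 116, 126, 37.3 and 86.8 RPKM in IMZ and 85.6, 182, 62.4 and 74.6 in IVZ in zygote polysomal RNA. Oog3 had 110.3, 86.5, 82.2 and 137 RPKM in IVM, 115, 78.5, 119 and 116 in COC and 107, 222, 129 and 103 in IVO in oocytes, with IVO replicate 2 the highest. Oog3 gave 123, 69.2, 98.2 and 157 RPKM in IMZ and 61.6, 107, 127 and 189.7 in IVZ in zygotes. Oog2 had 43.4, 58.9, 38.6 and 37 RPKM in IVM, 31.9, 45.4, 48.6 and 39.7 in COC and 44.5, 65.2, 43 and 29.8 in IVO in polysomal RNA of oocytes. Its zygote libraries had 52.2, 57.4, 30.5 and 46.9 RPKM in IMZ and 33.8, 65.4, 27.6 and 31.7 in IVZ, and the groups overlapped. Oog4 had 40.1, 94.6, 82.3 and 64.5 RPKM in IVM, 115, 70.9, 92.8 and 78.3 in COC and 75.3, 129, 59.3 and 63.5 in IVO, and in zygotes 80.3, 109, 63.9 and 76.1 RPKM in IMZ and 103, 108, 72.4 and 72.1 in IVZ.

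Of the Pramel genes with the smallest p in these comparisons, Pramel34 had 2.23, 14.3, 16.2 and 23.3 RPKM in IVM, 18.2, 17.5, 12.4 and 20.3 in COC and 16.7, 27.3, 21.4 and 13.1 in IVO in oocyte polysomal RNA. IVM replicate 1, a library the authors excluded, held the lowest of these values. Pramel34 had 25, 22.6, 14.5 and 16.8 RPKM in IMZ and 28.7, 26.7, 20.2 and 24.5 in IVZ in zygotes. For IMZ against IVZ its interval was -1.05 to 0.35. Pramel51 had 87.2, 99.4, 83 and 133 RPKM in IMZ and 129, 165, 129.7 and 173 in IVZ in zygotes, a difference of -0.57 ± 0.27 with an adjusted p of 0.845. Pramel32 had 40.8, 57.3, 36.2 and 65.2 RPKM in IMZ and 12.7, 40.8, 47.1 and 61.3 in IVZ, where IVZ replicate 1 held the lowest value, and its difference was 0.45 ± 0.42. Pramel25 had 206, 173, 135 and 158 RPKM in IMZ and 178, 305, 173 and 159.5 in IVZ in zygotes, with a difference of -0.24 ± 0.28. In oocytes Pramel25 had 316, 218, 159.7 and 194 in IVM and 189.9, 172, 179 and 185 in COC, a difference of 0.24 ± 0.25. Pramel13, known as Pramef12 in the older annotation and needed for spermatogonial stem cells in the mouse, had 109.7, 123, 98.1 and 116 in COC and 91, 144, 87.1 and 75.9 in IVO. Its difference was 0.20 ± 0.26. Between polysomal RNA of zygotes and oocytes 0 of 13 members were called on either route, where 1.32% of all genes were called lower and 0.753% higher for IVZ against IVO, and 1.3% and 0% for IMZ against COC (57 lower and 0 higher; 30 and 6 with median-of-ratios scaling). At an unadjusted p under 0.05 there were 0 and 1, Pramel15 at -0.91 ± 0.41 for IMZ against COC, beside 17.5% and 14% of all genes. The contrast of the zygote with the oocyte effect also called 0 of 13, with 0 at an unadjusted p under 0.05, beside 5.27% of all genes, and 0% of all genes called.

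One polysomal library carried more of these messages than its replicates. The 13 members listed in all 8 tables summed to 1017, 1866, 1011 and 777 RPKM in polysomal RNA of IVO replicates 1 to 4. In IVO replicate 2 all 13 were above their group mean, with a median shift of 0.72 on the log2(RPKM + 1) scale, where the median shift of the 4377 genes listed everywhere was 0.14. The next highest was IVZ replicate 2, at 1592 RPKM against 976 to 1130 in the other IVZ libraries. In total RNA the sums ran from 1577 to 2057 RPKM over the 20 libraries. The group means of the sums were 58.3% to 64.6% of those of total RNA, with IVO replicate 2 included.

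**Figure D4:**
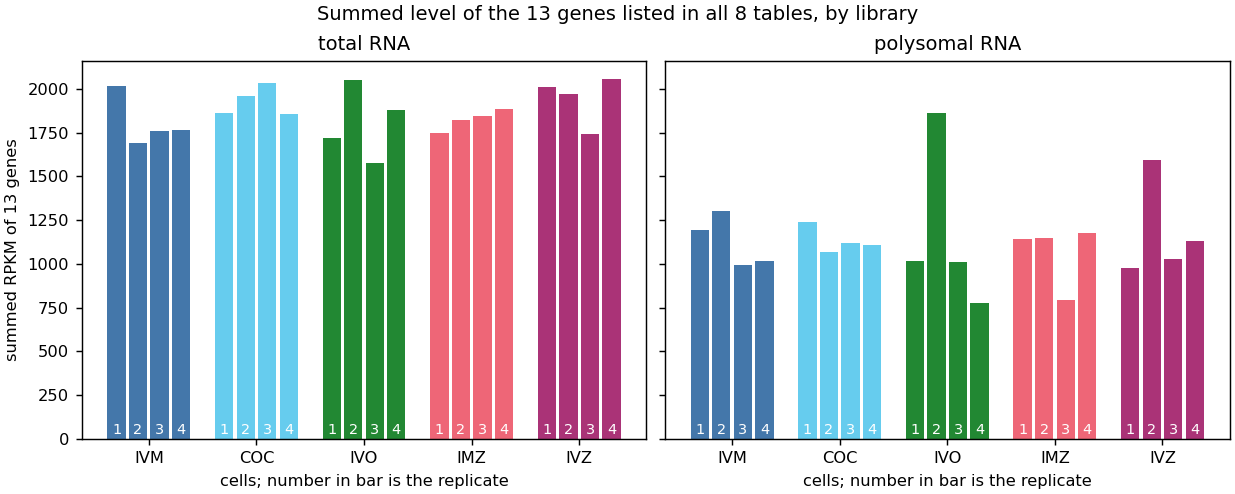
Summed RPKM of the 13 members listed in all 8 tables, by library (bars, numbered by replicate) in total RNA (left) and polysomal RNA (right). Polysomal IVO replicate 2 reaches 1866 RPKM, while the other 3 IVO libraries lie between 777 and 1017.

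Compared with total RNA, several members were low in the polysomal fraction. Oog1, Oog3, Pramel32 and Pramel34 were called lower in all 5 cell groups. In each single group 30.1% to 46% of all genes were called lower. The share of all genes called lower in all 5 was not counted, so this is no result about the members. Oog3 differed by -1.33 ± 0.20 (SE) in IVM, -1.33 ± 0.16 in COC, -0.95 ± 0.29 in IVO, -1.42 ± 0.24 in IMZ and -1.10 ± 0.34 in IVZ. Oog1 differed by -0.84 in COC to -1.44 in IVZ. Pramel32 ranged from -0.82 in IVM to -1.69 in IVZ, and Pramel34 from -0.71 in IVZ to -1.74 in IVM. Without polysomal IVM replicate 1, which the authors excluded, Pramel34 was at -1.11 in IVM, and without polysomal IVZ replicate 1, also excluded by them, Pramel32 was at -1.22 in IVZ. With each library left out, Pramel32 kept its call in every group. In IVM the call of Oog1 was lost without polysomal replicate 3 or 4 or total RNA replicate 1, 2 or 3, and that of Pramel34 without any one total RNA library. In IVO that of Oog3 was lost without polysomal replicate 1 or total RNA replicate 2. In IVZ the calls of Oog3 and Pramel34 were lost without total RNA replicate 1 or 4, and that of Oog3 also without polysomal replicate 2. All these differences sit on a shift of all genes, whose medians were -0.50 in IVM, -0.40 in COC, -0.55 in IVO, -0.51 in IMZ and -0.38 in IVZ. Relative to it, Oog3 was at -0.84, -0.92, -0.40, -0.90 and -0.72 in the same order. Oog4, relative to the shift, was at -0.23, 0.16, 0.31, 0.23 and 0.32, above it in all groups but IVM.

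The members called lower numbered 8 of 14 in IVM, 10 of 14 in COC, 6 of 15 in IVO, 9 of 13 in IMZ and 6 of 13 in IVZ, and 0 were higher. All genes were called lower at 38.9%, 44.3%, 45.2%, 46% and 30.1%, and higher at 14.9%, 23.4%, 13.9%, 15.1% and 10.9%, in that order. Below the median of all genes lay 9, 10, 11, 8 and 11 members. With median-of-ratios scaling, which removes most of the shift, the lower calls were 1 in IVM (Oog3), 6 in COC, 1 in IVO (Pramel27), 3 in IMZ (Oog1, Oog3 and Pramel32) and 2 in IVZ (Oog1 and Pramel32), and 1 member was higher in COC, where Pramel15 had 31.9 to 41.5 RPKM in polysomal and 33.1 to 37.0 in total RNA. None of the 4 members called in all 5 groups kept its call in all of them under that scaling. The differences of Pramel13 and Oog2 in COC, and of Pramel13 and Pramel29 in IMZ, turned above 0 with it. Over all genes that scaling called 1183 higher and 967 lower in IVM, 2428 and 2298 in COC, 1949 and 1801 in IVO, 1722 and 1590 in IMZ, and 1128 and 1060 in IVZ. In IVO the count was 13 without polysomal replicate 2. In IVZ it was 10 without polysomal replicate 2 and 2 without total RNA replicate 1 or 4, and in IVM 3 to 5 without polysomal replicate 4 or any one total RNA library. The labels do not say that the polysomal and total RNA libraries of one number share a collection, so the fractions were compared as separate groups.

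In IVO oocytes the lowest differences belonged to Pramel27, Pramel47 and Oog1. Pramel27 had 0.818, 1.06, 0.946 and 2.64 RPKM in polysomal and 6.4, 6.78, 33.2 and 12.5 in total RNA, a difference of -2.49 ± 0.45 with an adjusted p of 0.000743. Pramel47 had 3.24, 3.85, 1.01 and 2.19 in polysomal and 4.43, 8.62, 7.76 and 9.99 in total RNA, a difference of -1.31 ± 0.32 with an adjusted p of 0.00458. For both, no polysomal library reached the lowest total RNA library. This held for 5 of the 15 members in IVO, and the share of all genes was not counted. Oog1 differed by -1.20 ± 0.26, with an adjusted p of 0.00254. The highest were Oog2 at -0.05 ± 0.27, Pramel12 at -0.09 ± 0.30 and Oog4 at -0.24 ± 0.26, and none of these was called (adjusted p of 0.876, 0.817 and 0.444). Pramel12 measured 3.03, 5.73, 1.85 and 5.31 RPKM in IVO polysomal RNA, a range that spans its total RNA values.

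**Figure D5:**
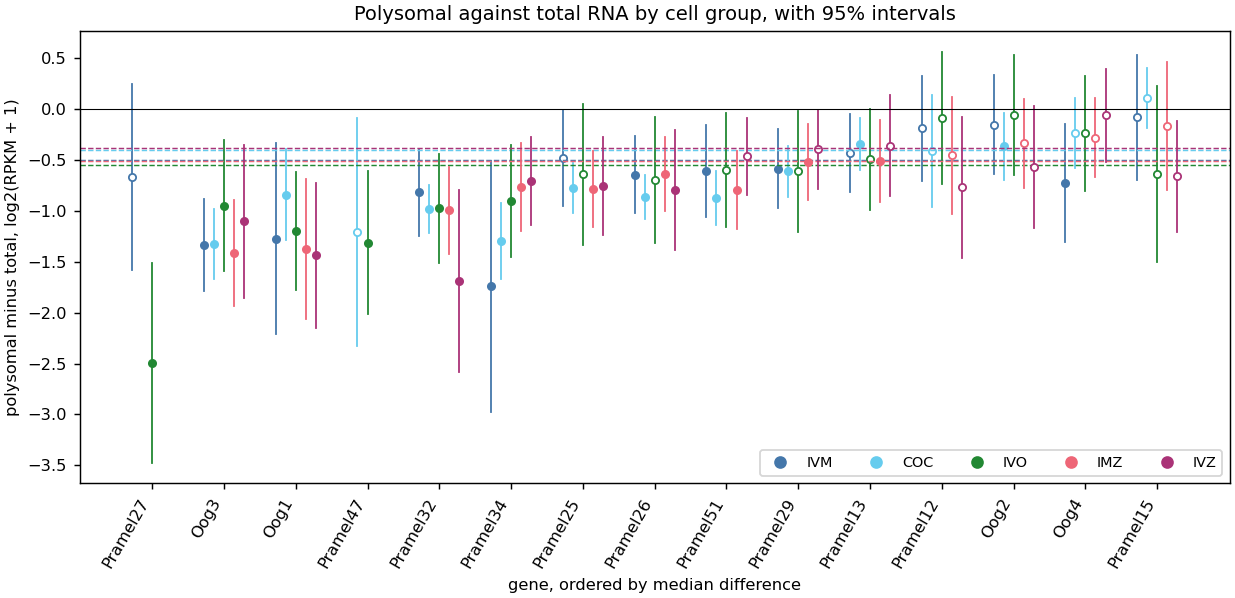
Polysomal minus total RNA on the log2(RPKM + 1) scale with its 95% interval for the 15 members with polysomal values, by cell group. Filled points are called at an adjusted p under 0.05, and dashed lines are the median of all genes in each group, from -0.55 to -0.38. Oog1, Oog3, Pramel32 and Pramel34 are filled in all 5 groups, where 30.1% to 46% of all genes were called lower in a single group.

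Genes linked to PRAME proteins were followed as a list of 26, chosen with earlier results of these data known, which holds the Cullin-2 ligase, its activators, other substrate receptors and reported targets. In total RNA 23 were tested. Between the oocyte groups limma called 0. At an unadjusted p under 0.05 there were 1 gene, 0 and 1 for IVM against IVO, COC against IVO and IVM against COC. Of all genes 10.9%, 7.08% and 5.65% passed that level. For IMZ against IVZ 8 of the 23 passed it, beside 18.9% of all genes. Limma called 2 of them lower and 0 higher there, where 1.15% of all genes were called lower and 0.508% higher. The 2 called were Eloc, the elongin C adaptor, at -0.44 ± 0.09 with an adjusted p of 0.0421, and Lrr1, another leucine-rich substrate receptor, at -0.42 ± 0.08 with an adjusted p of 0.0367. From IVO to IVZ 6 of 23 fell and 0 rose, and from COC to IMZ 7 of 23 fell and 0 rose, where 18.3% and 24.4% of all genes were lower and 5.4% and 9.42% higher. These counts lie near the shares of all genes and are no result about the list. Elob, the elongin B adaptor, fell from 6.7 ± 0.911 to 1.96 ± 0.343 RPKM on the in vivo route (SD, n = 4 each) and from 5.96 ± 1.03 to 1.79 ± 0.577 on the in vitro route. Eloc fell from 50.4 ± 9.85 to 31.8 ± 1.5 and from 45.5 ± 6.97 to 23.4 ± 3.5 RPKM. Dnmt1, the maintenance DNA methyltransferase, differed by -1.03 ± 0.10 and -0.62 ± 0.10 on the in vivo and in vitro routes, with adjusted p of 1.24e-07 and 5.28e-05. Ube2m, which charges the ligase with NEDD8, Cops5, a subunit of the COP9 signalosome, and Appbp2 were the others called on both routes. Cul2, the scaffold of the ligase, fell on the in vitro route, by 0.35 ± 0.07 with an adjusted p of 0.000491, against -0.10 ± 0.07 in vivo with an adjusted p of 0.309. The contrast of the zygote with the oocyte effect is also the difference between the 2 routes. In total RNA it called 0 of 23 genes of the list, with 4 at an unadjusted p under 0.05, beside 9.72% of all genes. So a difference between the routes was not shown for Cul2 or any other gene of the list. Rbx1, the RING subunit, had an adjusted p of 0.121 and 0.402. Uhrf1, a partner of DNMT1 and a reported target of mouse Pramel7, held 293 ± 33.3 RPKM in IVO and 299 ± 15.9 in IVZ, with an adjusted p of 0.791. In polysomal RNA 12 to 22 genes of the list were tested between cell groups and limma called 0, with 0 to 3 at an unadjusted p under 0.05. Of all genes 2.98% to 17.5% passed that unadjusted level in these fits. Against total RNA, polysomal levels of the list were lower for 6 of 14 genes in IVM, 10 of 22 in COC, 12 of 23 in IVO, 11 of 18 in IMZ and 9 of 18 in IVZ, and higher for 2, 4, 3, 4 and 1, where 38.9%, 44.3%, 45.2%, 46% and 30.1% of all genes were lower. For the steps to the zygote, the medians of the list were -0.09 from IVO to IVZ and -0.06 from COC to IMZ, and those of all genes -0.02 and -0.04.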

How the data were processed

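RNA of mouse oocytes and zygotes was sequenced from 40 libraries in 10 groups of 4, from strand-specific libraries of a SMARTer Pico total RNA kit, per the labels' protocols. Alignment was with DRAGEN to GRCm39, per the submitters' processing notes, and no DRAGEN version is stated. The authors deposited RPKM per gene and library in 8 tables, 4 comparisons in each fraction. The same tables hold the authors' deposited log2 fold changes and p-values, and a signed fold change, a score that is negative when the first group is lower, per the file headers. How RPKM were normalized beyond length and depth is not stated. Raw counts were not used here, so no count model was fitted.

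Every comparison was tested with limma 3.58.1 (R 4.3.3, trend on) on log2(RPKM + 1) over all genes of the table, without a replicate block, with Benjamini-Hochberg adjustment over all genes and a threshold of 0.05. A pseudocount of 1 understates changes of low genes. Steps from oocyte to zygote, and the contrast of zygote with oocyte effects, used genes listed in all tables of the fraction. The test was tried on simulated data. Alternatives were median-of-ratios scaling, a pseudocount of 0.1, a mean of at least 1 RPKM, the replicate number as block, and each library left out. Depth was estimated from the spacing of low RPKM values and the M21 exonic lengths. RefSeq promoters and GENCODE M21 transcripts are of GRCm38, an older build than that of the tables.

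The members and lists were chosen with earlier results of these data known. Named genes were the called members or else the 4 with the smallest p of each comparison between cell groups, the 5 with the highest level, the 3 lowest and highest polysomal against total differences in IVO, and Oog1 to Oog4 and Pramel15 always. Fractions and cell groups were compared as labelled, and same-numbered libraries were not treated as pairs.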

Additional observations from a re-analysis of the deposited data

Results flagged for a closer look

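Of 145 groups of 4 libraries of the named members, 12 (8.28%) held a library set apart from the other 3 by Dixon's test at the 95% level. Pramel16, Pramel19, Pramel23, Pramel28, Pramel29 and Pramel31 are not in this count. Some named members were chosen for a small p or an extreme difference. Chance gives about 1 in 20. Of these 12, 8 were in polysomal RNA, where replicates spread more.

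In polysomal RNA, the library apart was COC replicate 1 for Oog1, at 178.513 RPKM, and COC replicate 2 for Oog3, at 78.474 RPKM. For Pramel13 it was IMZ replicate 3, at 63.7873 RPKM, a library in which 0 of 13 members were above their group mean. Pramel27 stood apart in IVM replicate 3, at 9.30511 RPKM, and in IVO replicate 4, at 2.64043 RPKM. Pramel32 stood apart in IVO replicate 2, at 85.427 RPKM, a library in which all 13 members were above their group mean. IVZ replicate 2 stood apart for Oog2, at 65.3815 RPKM, and for Pramel25, at 305.201 RPKM.

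In total RNA, IMZ replicate 4 stood apart for Pramel25, at 329.681 RPKM, and for Pramel51, at 185.862 RPKM. IVZ replicate 2 stood apart for Pramel26, at 328.731 RPKM, and for Pramel47, at 15.3125 RPKM. Without IVZ replicate 2 Pramel47 was still called lower in IMZ than in IVZ, at a log2 difference of -0.65.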

How the results depend on the processing

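The counts of members called were 0 for the comparisons between oocyte groups and for all comparisons of polysomal RNA between cell groups, under each alternative run. With median-of-ratios scaling the count became 6 for IVZ against IVO in total RNA, and for polysomal against total RNA 1 in IVM, 1 in IVO, 3 in IMZ and 2 in IVZ. Over all genes the scaling took the calls from 56 to 11 for IVM against IVO in total RNA, and from 33 higher and 58 lower to 44 and 111 for IVZ against IVO in polysomal RNA. With each library left out, counts ran from 0 to 3 for IMZ against IVZ in total RNA, from 1 to 6 for IVZ against IVO, and for polysomal against total RNA from 3 to 9 in IVM, 5 to 13 in IVO and 2 to 10 in IVZ. Of the 47 called log2 fold changes of single members, 4 turned under the scaling, to 0.0785 for Pramel13 and 0.0529 for Oog2 in COC, and 0.0482 for Pramel13 and 0.0377 for Pramel29 in IMZ. A further 23 lost their call under it and 20 kept it. Of the 47 calls, 19 were lost in at least 1 fit with a library left out. The scaling removes most of the shift of all genes between the fractions, and the cause of the other changes was not tested.

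The replicate block took the count for IMZ against IVZ in total RNA to 0, and 7 of the 47 single calls were lost under it. In no comparison were the correlations of same-numbered libraries over 0.1 in all 4 pairs. For IMZ against IVZ in total RNA they ran from -0.203 to 0.173. For IVZ against IVO they ran from 0.0319 to 0.454 in total RNA and from -0.0156 to 0.448 in polysomal RNA. Unlike-numbered libraries reached 0.493 and 0.178 there. In polysomal RNA the block called 82 of all genes higher and 113 lower for IVZ against IVO, in place of 33 and 58. For IMZ against COC it called 3 and 119, in place of 0 and 57. The labels give only the number, and whether same-numbered libraries share a collection was not settled by these values. In polysomal RNA, depth is unknown for 13 of 20 libraries, and the 8 members that are not listed there have no value.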
